A study of Mus musculus with 12 samples.

Results

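The genes described here are 9 members of the Sonic hedgehog pathway, namely Shh, Ptch1, Smo, Gli1, Gli2, Gli3, Hhip, Gas1 and Boc, read from total RNA of Pdgfra/GFP+ cells of the mouse (fore)brain and spinal cord. They were chosen by name as the ligand, its receptors and inhibitor, the signal transducer and the transcription factors of the pathway, and matched by Ensembl identifier. They are 9 of the 47069 distinct genes listed. All 9 were among the 18319 genes that passed the filter on low values (at least 0.7 CPM in at least 3 libraries). CPM here means reads per 1e+06 of the library size as the authors rescaled it. That size was 0.472 to 1.20 times the reads recovered for a library. The cells came from Pdgfra-H2BGFP mice, whose Pdgfra locus makes a histone-bound green fluorescent protein, and were taken by fluorescence sorting. The study used heterozygotes, so the cells of all 4 groups carried 1 disrupted Pdgfra allele. Cells of brain or spinal cord were taken from embryos (E13.5) or pups (P7) without any treatment, which makes 4 groups with 3 libraries each. Each library was a pool of animals of both sexes. The reporter protein outlasts Pdgfra mRNA, so the gate also holds descendants of Pdgfra+ cells. Embryos were dissociated by mechanical means and pups with papain, so age and dissociation cannot be told apart.

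Hedgehog ligands act at a distance from the cells that make them. The receptor Ptch1 holds the membrane protein Smo inactive until a ligand binds it, with help from co-receptors such as Gas1, Boc and Cdon. Active Smo, working at the primary cilium, turns the zinc finger factors Gli2 and Gli3 from repressors or inactive forms into activators. Gli1, Ptch1 and Hhip are themselves transcribed in responding cells, so their mRNA is widely used as a readout of the pathway. In the ventral neural tube, ligand from the notochord and floor plate sets the domains from which motor neurons and the first oligodendrocyte precursor cells (OPCs) arise. Mesenchymal cells of the meninges and sclerotome also respond to it.

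The reference promoter windows show the start sites of 2 readout genes that moved in opposite directions with age in spinal cord (Ptch1 and Hhip) and of 2 transcription factors that fell together (Gli2 and Gli3). RefSeq windows on GRCm38.p6, from 250 bases before to 50 after a start site, were matched for 6 of the 9 members. Ptch1 (chr13:63565686-63565985, minus strand), Hhip (chr8:80057959-80058258, minus strand), Gli2 (chr1:119053570-119053869, minus strand) and Gli3 (chr13:15463473-15463772, plus strand) are printed 5′ to 3′, with each CG dinucleotide in capitals.
Ptch1: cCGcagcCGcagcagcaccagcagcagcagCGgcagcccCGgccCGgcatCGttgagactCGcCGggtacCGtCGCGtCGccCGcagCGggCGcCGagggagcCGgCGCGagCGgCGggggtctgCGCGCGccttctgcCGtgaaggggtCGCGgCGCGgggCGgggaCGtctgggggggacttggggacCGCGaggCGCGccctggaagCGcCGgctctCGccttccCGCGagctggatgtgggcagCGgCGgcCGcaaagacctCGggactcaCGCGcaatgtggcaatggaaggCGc
Hhip: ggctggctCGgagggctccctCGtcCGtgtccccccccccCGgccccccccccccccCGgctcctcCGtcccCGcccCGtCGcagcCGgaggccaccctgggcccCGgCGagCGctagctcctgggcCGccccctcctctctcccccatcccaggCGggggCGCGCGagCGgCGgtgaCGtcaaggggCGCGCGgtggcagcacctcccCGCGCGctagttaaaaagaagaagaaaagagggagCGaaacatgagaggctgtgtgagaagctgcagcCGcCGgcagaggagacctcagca
Gli2: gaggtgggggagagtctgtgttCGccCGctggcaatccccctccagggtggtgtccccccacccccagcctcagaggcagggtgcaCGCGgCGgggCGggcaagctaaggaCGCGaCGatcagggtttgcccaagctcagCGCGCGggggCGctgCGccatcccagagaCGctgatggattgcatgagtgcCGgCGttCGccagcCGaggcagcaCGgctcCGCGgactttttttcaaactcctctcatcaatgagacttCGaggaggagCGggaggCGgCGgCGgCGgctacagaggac
Gli3: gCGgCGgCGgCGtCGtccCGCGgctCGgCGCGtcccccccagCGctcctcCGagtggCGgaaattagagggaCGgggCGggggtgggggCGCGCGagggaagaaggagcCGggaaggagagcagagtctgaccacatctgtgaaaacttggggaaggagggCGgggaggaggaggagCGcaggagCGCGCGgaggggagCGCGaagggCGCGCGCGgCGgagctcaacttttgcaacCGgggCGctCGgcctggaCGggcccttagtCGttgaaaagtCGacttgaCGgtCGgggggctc
These windows hold 47, 30, 28 and 39 CG dinucleotides in that order, against a median of 7 over the 32851 windows of the table. The windows of Smo and Gas1 hold 17 each. The Ptch1 window lies 7862 bases from the outermost annotated start of that gene, so it is one of several start sites. The Gli binding sequence GACCACCCA, searched on both strands, was in 0 of the 6 windows and in 0.253% of all windows. Its core ACCACCC, which the longer sequence contains, was in 1 of the 6, that of Gli2 (there as its reverse complement, gggtggt), and in 4.61% of all windows. A match is a description of letters and not a site, and a missing match says only that these letters are not in this window.

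The 12 libraries held between 12566345 and 38790312 reads, recovered as whole reads from the deposited CPM values. All P7 libraries (25276708 reads or more) were deeper than all E13.5 libraries (19903022 or fewer). E13.5 spinal cord replicate 3 stood apart: protein-coding genes held 41.0% of its reads against 82.4% to 91.2% in the other 11, and its library size had been scaled by 0.472 against 0.955 to 1.20. The age differences of the members in spinal cord, and their region differences at E13.5, are also given without it. Replicates 1 and 2 of each P7 group were much alike, with an SD of log2 ratios of 0.0647 in brain and 0.0666 in spinal cord, against 0.169 to 0.214 for either of them with replicate 3. They still differed by more than read sampling (a chi-square p under 0.05 in 12.6% and 18.4% of well-covered genes), and were kept as separate libraries. Pdgfra, whose locus drives the reporter, measured 2640 to 3402 CPM in P7 brain and 2014 to 2140 in P7 spinal cord, against 529 to 787 and 341 to 535 at E13.5. The summed level of 8 fibroblast markers of the meninges (Col1a1, Col1a2, Col3a1, Lum, Dcn, Foxc1, Tbx18 and Slc6a13) ran the other way, at 6126 to 9241 CPM in E13.5 brain and 11502 to 12946 in E13.5 spinal cord, against 1178 to 1552 and 1217 to 2640 at P7. In bulk samples, fewer cells of a type and less RNA per cell cannot be told apart.

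Between E13.5 and P7 Smo, the co-receptor Boc and all 3 Gli factors fell in both regions and Ptch1 in spinal cord, while the inhibitor Hhip rose in both. The fall was largest for the transcription factors: Gli3 dropped 18.3-fold in brain and 25.1-fold in spinal cord, and Gli2 dropped 12.4-fold and 24.6-fold (ratios of group means, n = 3 each). At E13.5 the readout genes Ptch1, Gli1 and Hhip were all lower in brain than in spinal cord, by 2.98-fold, 5.38-fold and 5.78-fold. The ligand Shh was higher in brain, but on 4 or 5 reads a library in spinal cord. Its call was lost under some alternatives, given below. At P7 only Hhip was still called between the regions by this rule (Gli3 too by edgeR and DESeq2). A gene was called changed when its Benjamini-Hochberg adjusted p from limma, over all tested genes, was under 0.05 and its difference in log2(CPM + 0.5) was more than 2-fold. By this rule 6 of the 9 members changed with age in brain (1 higher and 5 lower at P7), where 27.7% of all tested genes were called (11.0% higher and 16.7% lower). In spinal cord 7 changed (1 higher and 6 lower), against 35.1% of all tested genes (16.9% higher and 18.2% lower). Between brain and spinal cord 4 differed at E13.5 (1 higher and 3 lower in brain), against 8.71% of all tested genes (3.53% higher and 5.17% lower). At P7 1 differed (lower in brain), against 6.62% (2.27% higher and 4.35% lower). The size of the region difference itself changed with age for 2 members, Shh and Gli1, against 16.3% of all tested genes (6.66% higher and 9.66% lower). Without E13.5 spinal cord replicate 3 these counts were 6, 8, 4, 1 and 4 in the same order of contrasts. Over all tested genes that fit called 5104, 7045, 1802, 1224 and 3817, against 5068, 6436, 1595, 1213 and 2990 with the replicate.

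**Figure D1:**
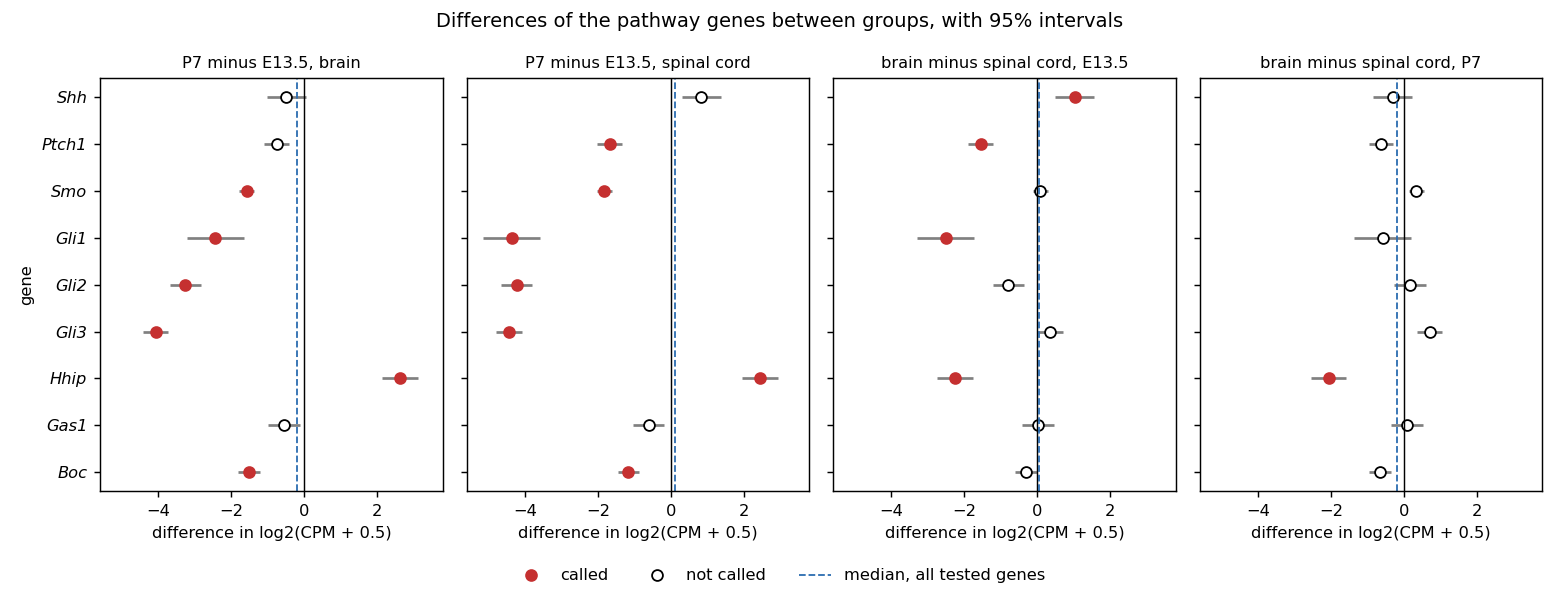
Differences of the 9 genes in log2(CPM + 0.5) for the age contrasts (P7 minus E13.5) in brain and spinal cord and the region contrasts (brain minus spinal cord) at both ages, with points for the limma estimate, bars for its 95% interval, filled points for called genes and a dashed line for the median of all tested genes. Gli2 and Gli3 lie between -3.26 and -4.44 in both age panels, Hhip lies above 2.4 in both, and Ptch1, Gli1 and Hhip lie below -1.5 in the E13.5 region panel.

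The groups separated completely in the age contrasts for every member. In brain 1 member lay higher and 8 lower at P7 in all 3 libraries, where 72.6% of all tested genes had libraries that did not overlap (27.8% higher and 44.9% lower). In spinal cord 2 lay higher and 7 lower, against 70.8% of all genes (39.9% higher and 30.8% lower). The median difference over the 9 members was -1.50 in brain and -1.67 in spinal cord on the log2 scale, beside -0.19 and 0.12 over all tested genes. For the region contrast 5 members did not overlap at E13.5 and Smo, Gli3, Gas1 and Boc did overlap, beside 37.7% of all genes without overlap (20.5% higher and 17.2% lower in brain). At P7 again 5 did not overlap while Shh, Gli1, Gli2 and Gas1 did, beside 61.7% of all genes without overlap (12.3% higher and 49.4% lower in brain). The members' median region difference was -0.30 at E13.5 and -0.31 at P7, beside 0.05 and -0.19. Rescaling by TMM moved the median of all genes to -0.02 for age in brain and for region at P7, and the members' medians there to -1.32 and -0.19, without changing the members called. The share of calls that were higher moved with it, from 39.7% to 49.1% for age in brain, from 34.3% to 46.6% for region at P7 and from 40.8% to 54.9% for the change of the region difference.

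Shh (ENSMUSG00000002633, chromosome 5, 28456815 to 28467256, minus strand), the secreted ligand, was the member with the fewest reads. It measured 0.998, 0.966 and 1.93 CPM in E13.5 brain and 0.298, 0.178 and 0.675 CPM in E13.5 spinal cord, where it rested on 5, 4 and 4 reads. At P7 it measured 0.697, 0.694 and 0.845 CPM in brain and 1.22, 1.17 and 0.776 CPM in spinal cord. All E13.5 brain libraries therefore lay above all E13.5 spinal cord libraries, and the P7 groups overlapped. The difference of brain from spinal cord at E13.5 was 1.02 ± 0.25 (log2, SE; limma Benjamini-Hochberg adjusted p = 0.0067), just past the 2-fold limit. It was 1.25 without E13.5 spinal cord replicate 3, but missed the limit without E13.5 brain replicate 3 (0.79), without spinal cord replicate 1 (0.97) or 2 (0.85), with median-ratio rescaling (0.97) and with a pseudocount of 1 CPM (0.72). With age, Shh differed by -0.49 in brain (95% interval -1.02 to 0.04, limma adjusted p = 0.0997) and by 0.84 in spinal cord (0.31 to 1.37, limma adjusted p = 0.0083), neither of them past the call rule. In spinal cord the difference passed the rule without E13.5 spinal cord replicate 3 (1.07), with quantile normalization (1.18), with a pseudocount of 0.1 CPM (1.37), and with limma-voom (1.75), edgeR (1.75) and DESeq2 (1.65). At P7 the regions differed by -0.31 (95% interval -0.84 to 0.22). The defining floor plate factor Foxa2, a marker of the ligand-producing midline, was at most 0.132 CPM in any library and without reads in every P7 brain library. Of the 5 floor plate markers, Lmx1a, Ntn1 and Spon1 had means of at least 1 CPM in E13.5 brain, and Foxa1, Ntn1 and Spon1 in E13.5 spinal cord. Their sum was 62.9 to 113 CPM in E13.5 brain and 245 to 265 CPM in E13.5 spinal cord, and 449 to 490 and 640 to 654 CPM at P7. Most of it was Ntn1 and Spon1, with means of 32.8 and 52.0 CPM in E13.5 brain and 64.0 and 187 CPM in E13.5 spinal cord. At P7 Ntn1 and Spon1 had means of 128 and 347 CPM in brain and 275 and 370 CPM in spinal cord. Foxa1, Foxa2 and Lmx1a had means of at most 0.128 CPM in either region at P7, so the rise of the sum was that of Ntn1 and Spon1. Lmx1a and Foxa2 had higher means in E13.5 brain (4.84 and 0.0756 CPM) than in E13.5 spinal cord (0.335 and 0.0148 CPM). Foxa1 had a lower one (0.186 against 1.38 CPM). The part of these markers in the Shh levels was not tested.

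Ptch1 (ENSMUSG00000021466, chromosome 13, 63508328 to 63573598, minus strand), the ligand receptor that restrains Smo, was highest in E13.5 spinal cord. It measured 107, 134 and 131 CPM in E13.5 brain and 449, 389 and 272 CPM in E13.5 spinal cord. P7 brain gave 71.4, 77.4 and 70.5 CPM and P7 spinal cord 119, 118 and 104 CPM. No library of E13.5 spinal cord came near any other group, and within each age brain lay below spinal cord in every library. Ptch1 was 2.98-fold lower in brain than in spinal cord at E13.5 (log2 difference -1.55 ± 0.16, SE; limma adjusted p = 1.4e-05, and -1.75 without E13.5 spinal cord replicate 3). It fell 3.26-fold with age in spinal cord (-1.67 ± 0.16, limma adjusted p = 9.8e-07, and -1.88 without that replicate). In brain the P7 mean was 1.70-fold lower, a difference of -0.76 (95% interval -1.10 to -0.41, limma adjusted p = 0.0011) that did not reach 2-fold. The same held for the region difference at P7, with -0.63 (-0.97 to -0.29, limma adjusted p = 0.0099). Its region difference was 0.92 closer to 0 at P7 than at E13.5, short of the 2-fold limit, and past it with TMM rescaling (1.11), median-ratio rescaling (1.25), quantile normalization (1.22), edgeR (1.20), DESeq2 (1.28) and without E13.5 spinal cord replicate 3 (1.12).

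Gas1 (ENSMUSG00000052957, chromosome 13, 60174405 to 60177365, minus strand) and Boc (ENSMUSG00000022687, chromosome 16, 44485049 to 44558897, minus strand) are cell-surface co-receptors that help Ptch1 to bind the ligand. Gas1 measured 44.4, 39.6 and 58.8 CPM in E13.5 brain and 35.0, 43.4 and 64.6 CPM in E13.5 spinal cord, and at P7 32.7, 35.2 and 28.0 CPM in brain and 32.2, 31.0 and 27.3 CPM in spinal cord. Every P7 library lay below every E13.5 library of its own region, but by less than 2-fold, with differences of -0.55 in brain (95% interval -0.99 to -0.12) and -0.61 in spinal cord (-1.04 to -0.17). Without E13.5 spinal cord replicate 3, its highest library there, the spinal cord difference was -0.37 (limma adjusted p = 0.0495). The regions overlapped at both ages, with differences of 0.02 (-0.41 to 0.46) at E13.5, 0.26 without that replicate, and 0.08 (-0.35 to 0.51) at P7. The sign at E13.5 turned under median-ratio rescaling, quantile normalization, edgeR and DESeq2, so no direction is given. Boc measured 63.03, 44.3 and 57.3 CPM in E13.5 brain and 58.5, 63.7 and 81.0 CPM in E13.5 spinal cord. At P7 it measured 19.1, 19.4 and 18.0 CPM in brain and 31.1, 30.0 and 28.3 CPM in spinal cord, below all E13.5 libraries. Unlike Gas1 by the call rule, Boc fell past 2-fold in both regions, with -1.50 ± 0.14 in brain (log2, SE; limma adjusted p = 1.2e-06) and -1.16 ± 0.14 in spinal cord (limma adjusted p = 8.1e-06, and -1.03 without E13.5 spinal cord replicate 3). Whether the changes of Gas1 and Boc differ was not tested. P7 brain lay below P7 spinal cord in every library for Boc, at 1.58-fold (-0.65, 95% interval -0.95 to -0.35, limma adjusted p = 0.0040), which did not reach 2-fold.

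Smo (ENSMUSG00000001761, chromosome 6, 29735503 to 29761365, plus strand), the transducer that Ptch1 restrains, had the smallest standard error of the 9 genes. It measured 115, 110 and 124 CPM in E13.5 brain and 102, 117 and 109 CPM in E13.5 spinal cord, and these groups overlapped. P7 brain gave 38.2, 37.3 and 40.6 CPM and P7 spinal cord 29.0, 28.2 and 34.7 CPM. Smo fell 3.01-fold with age in brain (-1.58 ± 0.095, SE; limma adjusted p = 3.0e-08) and 3.58-fold in spinal cord (-1.83 ± 0.095, limma adjusted p = 4.9e-09, and -1.83 too without E13.5 spinal cord replicate 3). Between the regions it differed by 0.09 at E13.5 (95% interval -0.12 to 0.29, and 0.09 too without that replicate), a sign that turned with median-ratio rescaling and DESeq2 (-0.01 each). At P7 every brain library lay above every spinal cord library, by 0.34 (0.13 to 0.54), short of 2-fold. A 2-fold regional difference of Smo was outside the interval at both ages.

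**Figure D2:**
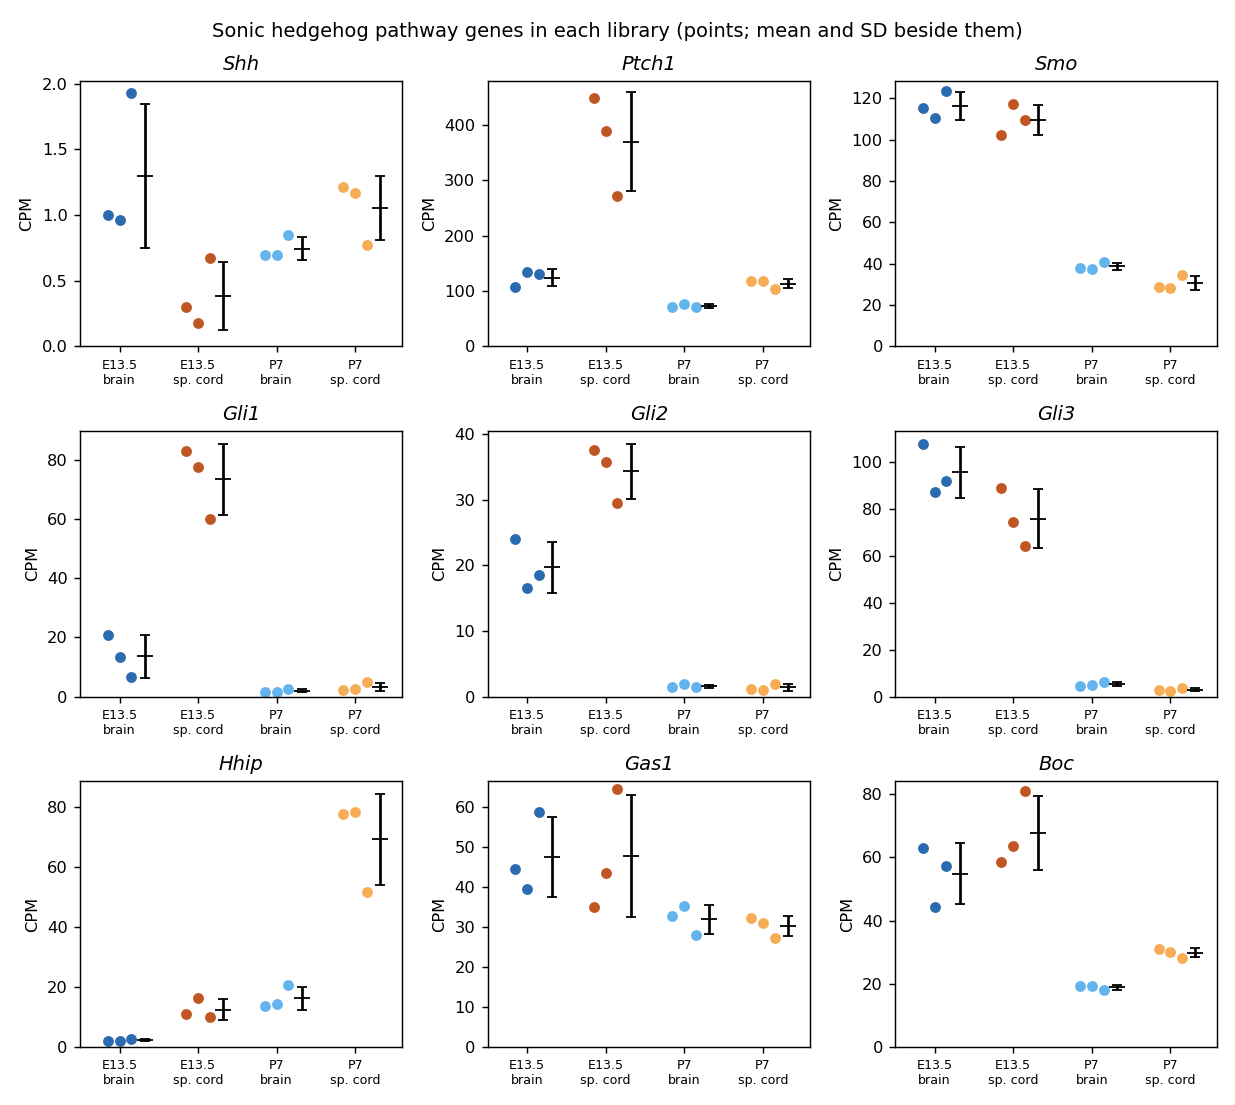
CPM of the 9 genes in each of the 12 libraries, with 1 panel a gene and its own linear axis from 0, points for replicates 1, 2 and 3 from left to right, and a line and bars for the mean and SD of each group. Ptch1 and Gli1 stand highest in E13.5 spinal cord (272 to 449 and 59.9 to 82.9 CPM), Gli2, Gli3, Smo and Boc are high at E13.5 and low at P7, and Hhip is highest in P7 spinal cord (51.5 to 78.3 CPM).

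Gli1 (ENSMUSG00000025407, chromosome 10, 127329882 to 127341974, minus strand), an activator that is itself switched on by the pathway, showed the steepest regional contrast at E13.5 among the Gli genes. It measured 20.9, 13.48 and 6.49 CPM in E13.5 brain and 82.9, 77.5 and 59.9 CPM in E13.5 spinal cord. At P7 it measured 1.54, 1.69 and 2.48 CPM in brain and 2.38, 2.41 and 4.90 CPM in spinal cord. The E13.5 groups were far apart, while the P7 groups overlapped. Gli1 was 5.38-fold lower in E13.5 brain than in E13.5 spinal cord (-2.52 ± 0.36, SE; limma adjusted p = 0.00020, and -2.66 without spinal cord replicate 3). With age it fell 7.16-fold in brain (-2.43 ± 0.36, limma adjusted p = 7.5e-05) and 22.7-fold in spinal cord (-4.36 ± 0.36, limma adjusted p = 2.7e-07, and -4.50 without E13.5 spinal cord replicate 3). At P7 the regions differed by -0.59 with a 95% interval of -1.36 to 0.19, so a 2-fold difference in that direction was not excluded by the spread of the libraries. The region difference was 1.93 ± 0.51 closer to 0 at P7 than at E13.5 (limma adjusted p = 0.0095), and this held under every alternative run (1.49 to 2.30).

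Gli2 (ENSMUSG00000048402, chromosome 1, 118834132 to 119053619, minus strand), the main activator of the pathway, measured 24.0, 16.5 and 18.6 CPM in E13.5 brain and 37.6, 35.8 and 29.5 CPM in E13.5 spinal cord. Its P7 values were 1.45, 1.85 and 1.48 CPM in brain and 1.19, 1.05 and 1.95 CPM in spinal cord, on 34 to 63 reads a library. Each E13.5 library was above each P7 library by a wide margin, E13.5 brain lay below E13.5 spinal cord, and the P7 groups overlapped. Gli2 fell by 3.26 ± 0.20 in brain (log2, SE; limma adjusted p = 3.1e-08) and by 4.22 ± 0.20 in spinal cord (limma adjusted p = 2.2e-09), where the difference was -4.32 without E13.5 spinal cord replicate 3. The E13.5 regions differed by -0.79 (95% interval -1.22 to -0.37, limma adjusted p = 0.0082, and -0.90 without that replicate), which did not reach 2-fold, and the P7 regions by 0.17 (-0.26 to 0.60). Its region difference moved by 0.96 with age, short of the limit, and passed it under 12 of 25 alternatives, among them TMM rescaling (1.11), limma-voom (1.09), edgeR (1.26), DESeq2 (1.33) and the fit without E13.5 spinal cord replicate 3 (1.07).

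Gli3 (ENSMUSG00000021318, chromosome 13, 15463235 to 15730026, plus strand), the main repressor when the ligand is absent, measured 108, 87.3 and 91.9 CPM in E13.5 brain and 89.2, 74.7 and 64.1 CPM in E13.5 spinal cord. The P7 values were 4.36, 5.16 and 6.21 CPM in brain and 2.92, 2.53 and 3.63 CPM in spinal cord. The E13.5 regions overlapped, and every P7 library was far below. Gli3 fell by 4.07 ± 0.16 in brain (log2, SE; limma adjusted p = 1.1e-09) and by 4.44 ± 0.16 in spinal cord (limma adjusted p = 4.5e-10), the largest limma estimates for age among the members. Without E13.5 spinal cord replicate 3 the latter was -4.55. At E13.5 brain and spinal cord differed by 0.34 (95% interval -0.01 to 0.69), and by 0.22 without that replicate. At P7 all brain libraries were above all spinal cord libraries, by 0.70 (0.35 to 1.06, limma adjusted p = 0.0064), which reached 2-fold only with edgeR (1.02) and DESeq2 (1.032).

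Hhip (ENSMUSG00000064325, chromosome 8, 79965851 to 80058006, minus strand), a membrane protein that binds and sequesters the ligand, was the 1 member called higher with age in both regions (Shh passed the rule in spinal cord under some alternatives, given above). It measured 1.81, 2.06 and 2.57 CPM in E13.5 brain and 10.9, 16.4 and 9.95 CPM in E13.5 spinal cord. P7 brain gave 13.54, 14.2 and 20.6 CPM and P7 spinal cord 77.6, 78.3 and 51.5 CPM. Within each age all brain libraries lay below all spinal cord libraries, and within each region all P7 libraries lay above all E13.5 libraries. Hhip rose 7.50-fold in brain (2.64 ± 0.23, SE; limma adjusted p = 6.7e-07) and 5.58-fold in spinal cord (2.44 ± 0.23, limma adjusted p = 8.6e-07, and 2.30 without E13.5 spinal cord replicate 3). It was 5.78-fold lower in brain at E13.5 (-2.26 ± 0.23, limma adjusted p = 1.2e-05, and -2.40 without that replicate) and 4.29-fold lower at P7 (-2.07 ± 0.23, limma adjusted p = 3.7e-05). The region difference moved by 0.20 with age (95% interval -0.50 to 0.89). Markers of differentiating oligodendrocytes moved with Hhip at P7: the summed level of 7 markers (Mbp, Cnp, Mag, Mog, Mal, Mobp and Opalin) was 1188, 1196 and 2721 CPM in P7 brain and 14894, 14404 and 10022 CPM in P7 spinal cord, and all 7 were called lower in brain. Of all tested genes 4.35% were called lower in brain at P7. In both regions replicate 3 differed from the others in the same direction in Hhip and in the sum of these markers. At E13.5 the sum was 26.7 to 61.8 CPM in brain and 28.9 to 35.4 CPM in spinal cord, with Opalin at 0 in the latter, and 0 of the 7 were called between the regions there by limma (0 at an unadjusted p under 0.05, 0 by edgeR and 1 by DESeq2). The part of these cells in the P7 level of Hhip was not tested.

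The other cell types in the gate differed between the groups as well. Of all tested genes 27.7% were called for age in brain and 35.1% for age in spinal cord. For region 8.71% were called at E13.5 and 6.62% at P7. Whether the marker lists differ from these shares was not tested. Of the 8 meningeal fibroblast markers, 7 fell with age in brain and 8 in spinal cord, in the same direction as Smo, Gli1, Gli2, Gli3 and Boc. At E13.5 3 of the 8 were lower and 1 higher in brain. Cartilage and sclerotome markers (Col2a1, Acan, Col9a1, Matn1, Pax1 and Pax9) summed to 71.2 to 101 CPM in E13.5 brain and to 186, 165 and 630 CPM in E13.5 spinal cord. Of the 6, 4 were lower in brain (3 without spinal cord replicate 3). Replicate 3, the library that stood apart, had the highest sum, of which Col2a1 made 544 CPM. In CPM it had the lowest Ptch1, Gli1, Gli2, Gli3 and Hhip of its group and the highest Shh, Gas1 and Boc, with Smo in between. The ranks of Shh, Gas1 and Boc depend on the scaling of its library size by 0.472. For Shh it had 4 reads, against 5 and 4 in replicates 1 and 2. The 7 OPC markers, in contrast, all rose with age in both regions, and 5 were higher in brain at E13.5. Cycling markers were higher in brain than in spinal cord at E13.5 for 6 of 7 genes (1834 to 1891 against 779 to 814 CPM in sum), and at P7 0 of 7 were called by limma, edgeR or DESeq2 (7 at an unadjusted p under 0.05 in limma). The part of cell mixture in the levels of the pathway genes was not tested.

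Levels of different genes were compared as CPM per kilobase (kb) of exonic sequence. The length was that of all annotated exons of a gene merged (14185 bases for Ptch1, 9076 for Hhip and 2961 for Gas1). It can exceed the length of the transcripts present, which lowers the value of that gene, so the order of genes depends on it. On this scale Smo had the highest mean in E13.5 brain with 20.7 ± 1.2 (SD, n = 3), followed by Gas1 (16.1 ± 3.4), Boc (12.3 ± 2.2), Gli3 (9.99 ± 1.1) and Ptch1 (8.76 ± 1.0), and each of these neighbours overlapped in range. Gli2 (2.87) and Gli1 (2.73) came next, then Shh (0.456) and last Hhip (0.237). In E13.5 spinal cord Ptch1 had the highest mean with 26.1 ± 6.3, and overlapped in range with the next gene, Smo (19.5). Smo, Gas1 (16.1), Boc (15.2) and Gli1 (14.7) also overlapped, each with its neighbour, above Gli3 (7.93), Gli2 (4.998), Hhip (1.37) and Shh (0.135). At P7 Gas1, the least changed of the receptor genes, led in both regions with 10.8 ± 1.2 in brain and 10.2 ± 0.86 in spinal cord, apart in range from the next gene. In P7 spinal cord Hhip stood after Gas1 and Ptch1 at 7.62 ± 1.7, level with Ptch1 (7.99 ± 0.60) and Boc (6.69 ± 0.32) within their ranges. At P7 Gli1, Gli2, Gli3 and Shh were all below 1 CPM per kb in both regions.

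**Figure D3:**
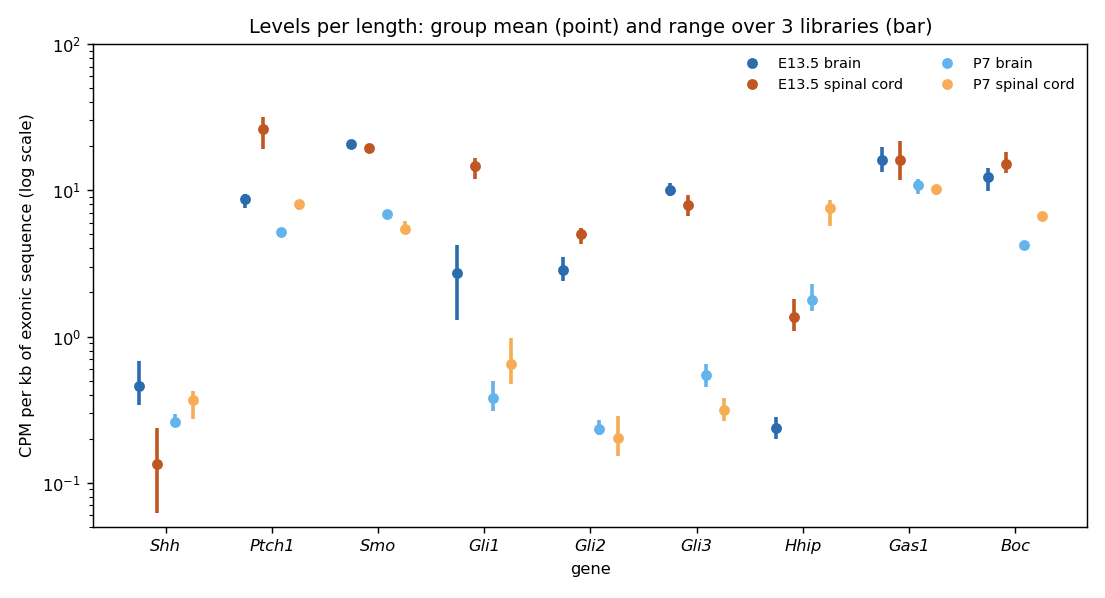
Group means of the 9 genes in CPM per kb of exonic sequence on a log axis, with bars for the lowest and highest of 3 libraries and colours for the 4 groups. Ptch1 in E13.5 spinal cord is the highest mean (26.1, its bar overlapping that of Smo), Gas1 stays between 10.2 and 16.1 in all groups, the 3 Gli genes drop below 1 at P7, and Hhip runs from 0.237 in E13.5 brain to 7.62 in P7 spinal cord.

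Ratios within a library show how the readout genes moved against each other. Hhip per kb divided by Ptch1 per kb was 0.0270 ± 0.0033 (SD, n = 3) in E13.5 brain, and E13.5 spinal cord had 0.0536 ± 0.014. At P7 it was 0.347 ± 0.095 in brain and 0.946 ± 0.15 in spinal cord, so that Hhip was near its fellow readout in the latter per length of merged exons. Gli1 per kb divided by Ptch1 per kb went the other way, from 0.327 ± 0.21 for E13.5 brain and 0.572 ± 0.050 for E13.5 spinal cord to 0.0744 ± 0.022 and 0.0830 ± 0.044 at P7. Gli3 per kb divided by Gli1 per kb was 2.69 to 7.38 in E13.5 brain and 0.502 to 0.561 in E13.5 spinal cord, without overlap. At P7 it was 1.30 to 1.59 in brain and 0.386 to 0.639 in spinal cord, again without overlap. These ratios were not put to a test.

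The rest of the pathway was described from lists of other ligands and release genes, other receptors, relay genes, cilium genes and target genes. The counts of these lists, and of the neural tube factors below, stand beside the shares of all tested genes called. These were 27.7% for age in brain, 35.1% for age in spinal cord, 8.71% for region at E13.5 and 6.62% for region at P7. Whether a list differs from these shares was not tested. The release list held Ihh and Dhh (the other ligands), Hhat (which attaches the palmitate of the ligand), Disp1 (which exports it) and the secreted carriers Scube1, Scube2 and Scube3, of which 6 of 7 were tested (Ihh was not). In brain 4 fell with age and 0 rose (Scube3, Disp1, Scube1 and Hhat), and in spinal cord 5 fell and 0 rose (Scube1, Scube2, Scube3, Disp1 and Hhat; without E13.5 spinal cord replicate 3 Hhat was not called, at -0.85, and edgeR called 1 higher). Scube1 measured 310, 230 and 189 CPM in E13.5 spinal cord against 31.0, 25.9 and 26.5 CPM in E13.5 brain, and at P7 5.55 to 12.6 CPM in both regions. It was 8.75-fold lower in brain at E13.5 (-3.08 ± 0.25, SE; limma adjusted p = 1.9e-06) and fell 29.6-fold with age in spinal cord. Scube3 did not follow the same pattern: it measured 50.5 to 70.3 CPM over both E13.5 groups, then 2.94, 2.48 and 3.91 CPM in P7 brain and 20.7, 20.98 and 17.5 CPM in P7 spinal cord. It was the 1 gene of this list called between the regions at P7 in the main fit, 6.34-fold lower in brain (-2.501 ± 0.15, limma adjusted p = 2.4e-07). At P7 limma-voom (1.26), edgeR (1.45) and DESeq2 (1.49) also called Scube2 higher in brain, against 0.51 in the main fit. Scube2 was the other gene lower in E13.5 brain (-1.02 ± 0.19, limma adjusted p = 0.0014), at 1.12 against 2.76 CPM. This call was lost without E13.5 spinal cord replicate 3 (-0.89) and with quantile normalization (-0.97). The ligand Dhh was at most 1.02 CPM in any library.

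The list of other receptors and surface genes held Cdon, Lrp2, Gpc3 and Gpc5, all 4 tested. With age 1 rose and 3 fell in brain, and 1 rose and 2 fell in spinal cord. Cdon, the co-receptor related to Boc, was higher in brain at E13.5, with 204, 171 and 193 CPM against 46.0, 54.9 and 59.7 CPM. That made a 3.53-fold difference (1.82 ± 0.11, limma adjusted p = 1.3e-07), and at P7 Cdon was 28.2 to 32.4 CPM in brain and 40.7 to 41.5 CPM in spinal cord. It fell 6.11-fold in brain, and in spinal cord its difference was -0.37 (95% interval -0.60 to -0.14). Lrp2, an endocytic co-receptor of the forebrain, measured 15.7 to 20.8 CPM in E13.5 brain and 9.17 to 11.3 CPM in E13.5 spinal cord, against 2.43 to 3.75 CPM over the P7 libraries, and fell in both regions (-2.41 and -1.53). The glypicans, heparan sulfate proteins of the cell surface, split: Gpc3, which competes with Ptch1 for ligand, fell in both regions, while Gpc5 rose in both. Gpc3 measured 141 to 180 CPM in E13.5 brain and 506 to 620 CPM in E13.5 spinal cord, against 30.0 to 38.2 and 57.5 to 95.9 CPM at P7, and was lower in brain at both ages (-1.79 and -1.06, the latter not called by edgeR or DESeq2). Gpc5 measured 1.01 to 1.93 CPM in E13.5 brain and 3.93 to 5.74 CPM in E13.5 spinal cord, then 101, 99.1 and 72.5 CPM in P7 brain and 15.3, 17.2 and 13.03 CPM in P7 spinal cord. It was lower in brain at E13.5 (-1.43) and higher in brain at P7 (2.53 ± 0.20, limma adjusted p = 3.0e-06), and this turn of the region difference passed the test (3.96 ± 0.29, limma adjusted p = 2.4e-06).

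**Figure D4:**
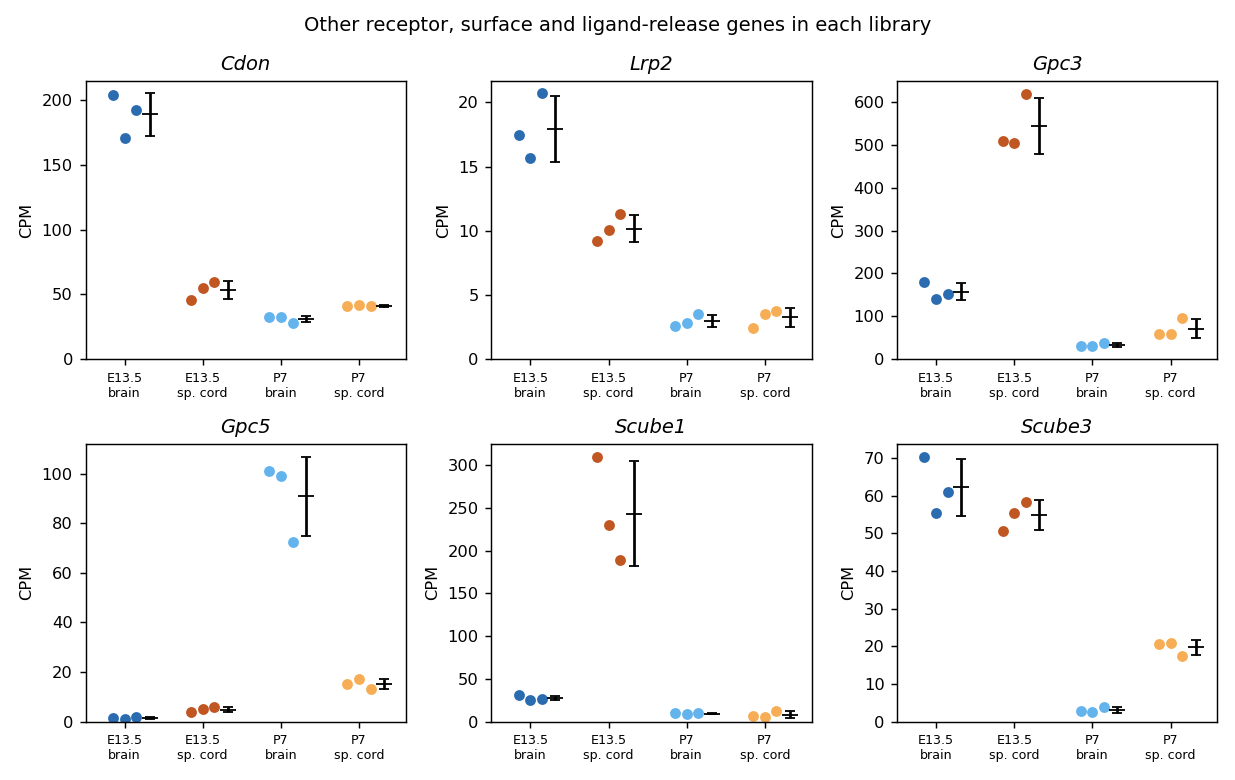
CPM of 6 other surface and release genes in each library, with points for replicates 1, 2 and 3 and a line and bars for mean and SD of each group, on linear axes from 0. Gpc3 and Scube1 peak in E13.5 spinal cord, Cdon (171 to 204 CPM) and Lrp2 (15.7 to 20.8 CPM) in E13.5 brain and Gpc5 in P7 brain (72.5 to 101 CPM).

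Of 22 relay genes, which act between Smo and the Gli factors, all tested, 2 fell with age in brain (Stk36 and Dlg5) and 3 in spinal cord (Stk36, Dlg5 and Sufu), 0 rose, and 0 differed between the regions at either age by limma, edgeR or DESeq2 (10 at E13.5 and 9 at P7 at an unadjusted p under 0.05 in limma). Over all tested genes 27.7% and 35.1% were called for age and 8.71% and 6.62% for region, and whether the list differs from them was not tested. Its median change with age was -0.17 in brain and -0.04 in spinal cord, beside -0.19 and 0.12 over all tested genes, and the brain value turned to 0.02 with TMM and with median-ratio rescaling. Sufu, which holds the Gli proteins in the cytoplasm, measured 59.9, 58.5 and 46.7 CPM in E13.5 spinal cord and 18.6 to 19.8 CPM at P7 (-1.49 ± 0.11, SE; limma adjusted p = 1.0e-07). In brain its difference with age was -0.93 (95% interval -1.17 to -0.69), short of 2-fold. Kif7, a kinesin of the cilium tip that regulates the Gli factors, had 21.4 to 32.4 CPM in every library. Its differences between ages were 0.18 (-0.07 to 0.43) in brain and 0.28 (0.03 to 0.53) in spinal cord. Of 20 primary cilium genes, all tested, 4 fell in brain (Tmem67, B9d1, Dync2h1 and Wdr35) and 3 in spinal cord (Tmem67, Ift172 and Dync2h1). Without E13.5 spinal cord replicate 3, 5 fell in spinal cord (Ift88 and Tctn1 in addition), and by DESeq2 7. By limma 0 of the 20 rose with age, but 2 were called higher in brain with TMM, with median-ratio rescaling, by edgeR and by DESeq2. Between the regions 0 were called at either age by limma, edgeR or DESeq2 (5 at E13.5 and 3 at P7 at an unadjusted p under 0.05 in limma). The cilium median with age was -0.61 in brain and -0.48 in spinal cord. With TMM the brain median was -0.43, where all tested genes had -0.02.

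The 12 other target genes moved in mixed directions. With age 5 fell and 0 rose in brain, and 6 fell and 1 rose in spinal cord, the riser being the cell cycle gene Ccnd1. Foxc2 and Foxf2, mesenchymal forkhead factors, fell in both regions. Foxc2 measured 15.8, 14.7 and 14.3 CPM in E13.5 brain and 46.9, 64.4 and 62.8 CPM in E13.5 spinal cord, against 1.92 to 4.31 CPM at P7. It was 3.89-fold lower in brain at E13.5 (-1.91 ± 0.21, SE; limma adjusted p = 3.2e-05), along with Foxf1 and Jag2 (-1.12). Jag2 was not called without E13.5 spinal cord replicate 3 (-0.94). Foxf1 had no reads in the 3 E13.5 brain libraries and 2.32, 3.24 and 7.09 CPM in E13.5 spinal cord, so its mean there was at least 29.1-fold higher, counted against 3 reads a library. In the other direction Ccnd1, Ccnd2, Foxm1 and Sfrp1 were higher in E13.5 brain, by 1.56, 1.88, 1.05 and 1.23 on the log2 scale. Without E13.5 spinal cord replicate 3 Foxm1 missed the limit (0.91) and Mycn passed it (1.19). With median-ratio rescaling, edgeR and DESeq2 the targets higher in brain were 3 in place of 4. At P7 1 target, Ccnd2, was higher in brain (1.04 ± 0.13, limma adjusted p = 0.00012). There limma-voom (1.16), edgeR (1.30) and DESeq2 (1.31) also called Foxf2 higher in brain, against 0.84 in the main fit. The list's median was -0.76 with age in brain (-0.99 with Foxf1, which had too few reads for a fold, left out) and -1.03 in spinal cord.

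Neural tube factors that the pathway is known to induce or repress were taken as a further list each. Of 8 induced factors 6 were tested (not Foxa2 and Nkx2-9). Nkx2-2, Olig1 and Olig2 rose with age in both regions, as did Nkx6-2 in spinal cord, while Nkx6-1 fell in both and Nkx2-1 in brain. In brain Nkx6-2 differed by 0.94, short of the limit. It passed with quantile normalization (1.34), limma-voom (1.59), edgeR (1.93) and DESeq2 (1.91). Nkx2-2 went from 0.855 to 2.81 CPM over all E13.5 brain libraries to 36.0 to 46.3 CPM at P7, and in spinal cord from 0.844 to 2.49 to 60.5 to 65.6 CPM. Over the same contrasts Gli1 fell 7.16-fold and 22.7-fold. Nkx6-1, a factor of the ventral cord, measured 36.5, 30.1 and 33.4 CPM in E13.5 spinal cord and 2.09, 2.503 and 3.06 CPM in E13.5 brain, and was lower in brain at P7 too (-2.13). Nkx2-1, a factor of the ventral forebrain, measured 11.2, 18.2 and 15.7 CPM in E13.5 brain and had no reads in any spinal cord library, at least 55-fold higher in brain by the same count. The induced list's median change was 1.80 in brain and 4.31 in spinal cord (4.48 with Nkx2-1, which has no reads there, left out). Olig1 and Olig2 of this list are also among the 7 OPC markers, all of which rose with age in both regions. The part of OPC content in the changes of this list was not tested. Of 8 repressed factors 7 were tested (not Dbx1). In brain 5 fell with age (Msx1, Pax3, Pax6, Irx5 and Pax7) and Dbx2 rose, and in spinal cord Pax3 and Pax7 fell while Dbx2, Irx3 and Irx5 rose. Msx1 differed by -0.94 in spinal cord and was called lower there by limma-voom (-1.01), edgeR (-1.17) and DESeq2 (-1.31). At E13.5 Msx1 and Pax6 were higher and Pax3 and Pax7 lower in brain. Without E13.5 spinal cord replicate 3 Pax7 missed the limit (-0.86) and Irx5 passed it (-1.05). At E13.5 Dbx2 was also called lower in brain by limma-voom (-1.44), edgeR (-1.47) and DESeq2 (-1.56), against -0.58 in the main fit. Msx1, a dorsal midline factor, stood at 69.8, 56.0 and 64.4 CPM in E13.5 brain against 1.73, 1.91 and 4.72 CPM in E13.5 spinal cord (4.39 ± 0.27, limma adjusted p = 2.0e-07).

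**Figure D5:**
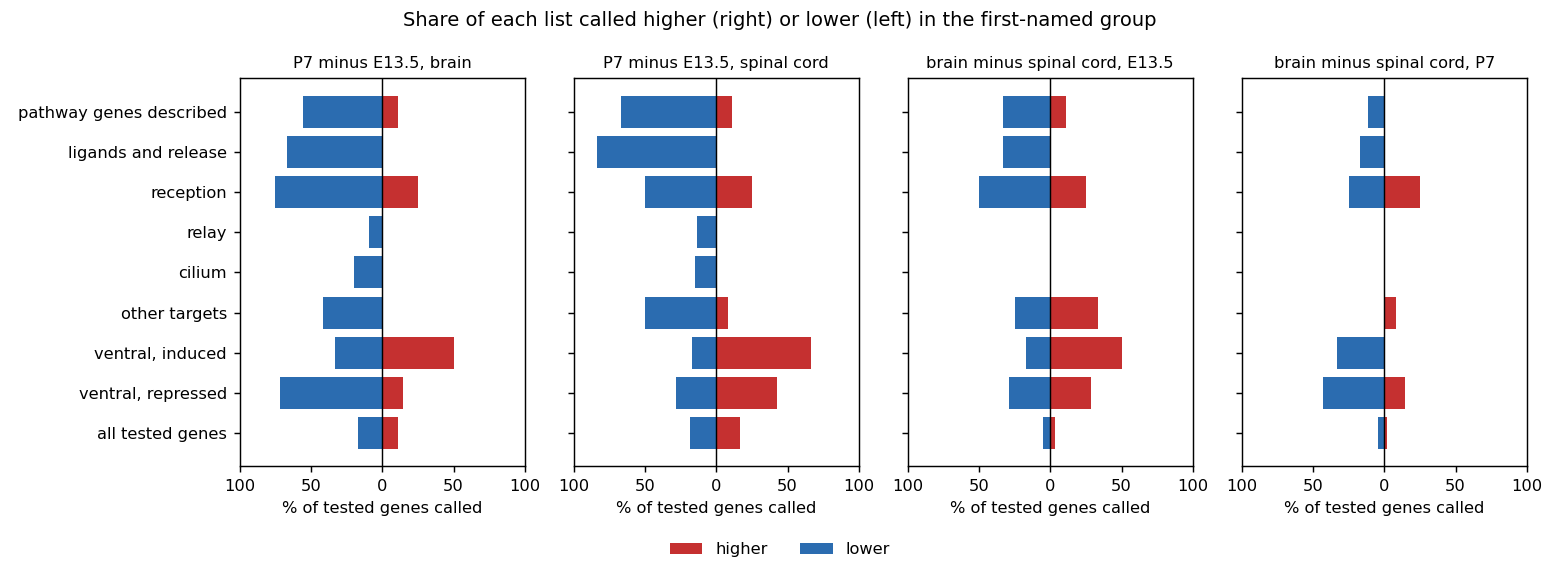
Share of the tested genes of each list that were called higher (red, to the right) or lower (blue, to the left) in the first-named group, in percent, for the 2 age and the 2 region contrasts, with all tested genes as the bottom bar. The receptor, release and member lists lean to lower in both age panels, the relay and cilium bars are empty in both region panels, and the list of ventral induced factors leans to higher in both age panels.

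The genes whose pattern was most like each member's over the 12 libraries were found by the Pearson correlation of log2(CPM + 0.5) among 13714 protein-coding genes. These correlations rest on 4 groups and describe the pattern only. Ptch1 was followed most closely by the chromatin factor Jarid2 (r = 0.984), Gbx1 (0.976) and Greb1l (0.9745). For Gli1 these were P3h3 (0.991), Hipk3 (0.989) and Ahdc1 (0.989), for Gli2 Myt1l (0.996), Arhgap28 (0.996) and Adamts7 (0.995), and for Gli3 Bnc2 (0.996), Etl4 (0.996) and Sh2d3c (0.995). Smo was followed by Adamts15 (0.997), Lhfp (0.996) and Ppic (0.995), and Boc by Nxn (0.988), Mfsd10 (0.987) and Slc25a10 (0.987). Hhip was followed by the adenylyl cyclase Adcy8 (0.989), Tmeff2 (0.984) and Ppp2r2c (0.980). Adcy8 averaged 2.496, 13.45, 13.9 and 48.1 CPM in E13.5 brain, E13.5 spinal cord, P7 brain and P7 spinal cord, where Hhip averaged 2.15, 12.4, 16.1 and 69.2 CPM. The neighbours of Gas1 were Nts (0.981), Gpx7 (0.960) and Laptm4a (0.945), and those of Shh, whose counts are few, were Mrps18c (0.952), Trmt12 (0.932) and Tufm (0.918).

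Some of these genes share exonic bases with another annotated gene on the opposite strand. The libraries were strand-specific per the methods of the study, but whether the counting used strand is not stated. The shared bases number 446 and 361 for Shh (9530036O11Rik and Gm26894), 62 and 265 for Gli1 (Arhgap9 and Gm47200), 188 for Gli3 (Gm6556), 175 for Hhip (Gm27820) and 589 for Gas1 (Gm48488). The partners with values averaged 0.0168 to 0.487 CPM over the 12 libraries. For Shh those partners averaged 0.224 and 0.238 CPM, which is not small beside its own 0.178 to 1.93 CPM, and the reads of either cannot be told apart here.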

How the data were processed

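Total RNA of sorted cells was sequenced from 12 strand-specific libraries, 3 pooled biological replicates in each of 4 groups. Per the methods of the study, the authors aligned reads to mm10 with STAR 2.5.0a and counted them over GENCODE M8 genes with featureCounts 1.5.0-p1, giving multi-mapping reads fractional weights that were rounded; strand use in counting is not given in the sources used here. HISAT2 2.0.5 and StringTie 1.3.1c are also named in the submitters' processing notes, without a role. The deposited table holds CPM values that the authors computed against library sizes they had rescaled. In 3 libraries the deposited values sum to more than CPM can, and are treated as a signal on the authors' scale of counts per rescaled library size.

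Of 47072 lines, 3 that repeat an identifier were dropped and 0 value columns were left unused. Dividing by the value of 1 read, the smallest step of a column, gave whole reads for 100.0% of values in every library (tolerance 0.001 reads). Symbols, positions and exonic lengths came from GENCODE M21 on GRCm38, of the same coordinates as mm10. Exact Poisson intervals for the reads cover counting error only, and 3 reads were taken as the floor of a library (0.0792 to 0.506 CPM). Genes that reached 0.7 CPM in 3 or more libraries were tested with limma 3.58.1 (R 4.3.3) as log2(CPM + 0.5) with an intensity trend, 1 mean per group over all 12 libraries. The limma-trend fit takes the place of the study's voom because the unit is CPM. Fold changes on this scale understate those of low genes. P-values were adjusted by Benjamini-Hochberg over all 18319 tested genes, and a call needs an adjusted p under 0.05 and more than 2-fold.

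Alternatives were TMM, median-ratio and quantile scaling, pseudocounts of 0.1 and 1 CPM, a 2 CPM filter or none, no fold threshold, limma-voom, edgeR 4.0.16 and DESeq2 1.42.0 on the recovered reads, fits of only the groups compared, a replicate block, P7 replicates 1 and 2 averaged, and leaving out each library in turn. On the recovered reads edgeR called 5989, 7389, 2081 and 1562 genes for age in brain, age in spinal cord, region at E13.5 and region at P7, against 5068, 6436, 1595 and 1213 by limma. The replicate block was also fitted within each age for the region contrasts and their change. The fits were tested on simulated data with 200 changed genes. Named genes are the 9 members, up to 3 of the largest called differences of each list in a contrast, genes to which a count of 5 or fewer refers, and the 3 protein-coding genes most like each member; other genes were named after their values were seen. The members, the 7 pathway lists and the 14 marker lists were chosen with earlier results of these data known. A few genes of these lists are not reported here, and no sum or count of a list includes them.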

Additional observations from a re-analysis of the deposited data

Results flagged for a closer look

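For 2 of the 9 pathway genes the difference between brain and spinal cord itself differed between the ages, by the test of that change in limma with Benjamini-Hochberg adjustment over all tested genes, where 16.3% of all tested genes were called. The region difference of Shh, on the log2(CPM + 0.5) scale, was 1.02 at E13.5 and -0.31 at P7, a change of -1.33 ± 0.35 (SE; limma adjusted p = 0.0092; 95% interval -2.09 to -0.58). E13.5 brain was above E13.5 spinal cord in all 3 libraries, and the P7 libraries overlapped. The E13.5 spinal cord values rest on 5, 4 and 4 reads, and the change missed the call rule with a pseudocount of 1 CPM (-0.95) and with P7 replicates 1 and 2 averaged (-1.24, limma adjusted p = 0.057). The region difference of Gli1 was -2.52 at E13.5 and -0.59 at P7, a change of 1.93 ± 0.51 (SE; limma adjusted p = 0.0095; 95% interval 0.83 to 3.03), which passed the call rule in all 25 alternatives run.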

How the results depend on the processing

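Most values kept their direction and their side of the threshold: of the members' values under the alternatives, 1089 did, 26 gained a call, 7 lost one and 16 changed sign. Without a fold threshold 11227, 12822, 5979, 5491 and 7290 genes were called for age (brain, then spinal cord), region (embryos, then pups) and the change of the latter with age, with 5 members at P7 and 4 for the change. For region at P7 edgeR and DESeq2 called 2 members each, beside 1562 and 1633 of all tested genes. For the change of the region difference TMM, median-ratio, quantile, edgeR and DESeq2 called 4 members each (2750, 2774, 2728, 2951 and 3156 of all tested genes). A pseudocount of 1, the 2 CPM filter (which dropped Shh) and averaging P7 replicates 1 and 2 left 1 member each (2525, 2619 and 2612 genes). Leaving out 1 library gave 2 to 4 members for that change, beside 2796 to 3817 of all tested genes (4 and 3817 without E13.5 spinal cord replicate 3). The E13.5 region difference of Smo turned to -0.0087 with median-ratio scaling and -0.010 with DESeq2. That of Gas1 turned to -0.070 with median-ratio, -0.055 with quantile, -0.028 with edgeR and -0.086 with DESeq2, and ran from -0.17 to 0.26 with 1 library left out. With 1 library left out the change of the region difference ran from -0.19 to 0.25 for Gas1 (-0.030 with limma-voom) and from -0.012 to 0.33 for Hhip; the cause was not tested. The labels of the replicates share only numbers (same-number correlations of deviations 0.31, 0.08 and 0.41 at E13.5 and 0.01, 0.02 and 0.04 at P7). At E13.5 brain replicates 1 and 3 correlated best with the spinal cord library of their own number, and brain replicate 2 did not. Whether the libraries of the regions were paired is not stated. With the replicate block 5074, 6438, 1595, 1212 and 2994 genes and 6, 7, 4, 1 and 2 members were called, against 5068, 6436, 1595, 1213 and 2990 genes without it. Depth limits Shh, with 4 or 5 reads in E13.5 spinal cord.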
